A study of Drosophila melanogaster with 2 samples.

Results

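Peroxins are the proteins that build peroxisomes, and 9 peroxin genes of Drosophila are described here by the binding of the transcription factor cropped (crp) at their promoters. The 9 genes are Pex2, Pex3, Pex5, Pex6, Pex10, Pex11ab, Pex11c, Pex13 and Pex19, out of 13968 protein-coding genes on the 7 chromosome arms. They were chosen by measured values of these libraries, the position and signal of summits within 1000 bp of an annotated transcript start, so the counts and signals at these genes are a description and carry no test. The series held 2 samples of a single group, biological replicates 1 and 3 of whole embryos of mixed sex, 0-16 hours old, from a transgenic line that stably expresses crp with GFP at its C terminus. Chromatin sheared by sonication to 200-800 bp was precipitated with an antibody against GFP. Whole embryos mix many cell types and stages, so the lists do not show in which cells a promoter was bound, and they report the tagged protein made from the transgene rather than the native one. Pex2, Pex3 and Pex10 lie on arm 3L, Pex11c on 3R, Pex19 on 2L, Pex5 on X, and Pex6, Pex11ab and Pex13 on 2R. Values for another 4 peroxins, Pex7, Pex14, Pex16 and Pex23, are given beside them.

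Peroxisomes are small organelles with a single membrane in which very long chain fatty acids are shortened, hydrogen peroxide is broken down and the first steps of ether lipid synthesis take place. They hold no DNA, so every protein comes from a nuclear gene: one group of peroxins inserts the membrane proteins, another carries matrix proteins in through a docking complex and recycles the carrier by ubiquitination and ATP-driven extraction, and the Pex11 family shapes and divides the organelle. Cropped, the fly counterpart of AP-4 of vertebrates, is a dimeric transcription factor of the bHLH-ZIP family. Its E-box is CAGCTG, a palindrome that reads the same on both strands.

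A summit is the base at which a peak of precipitated fragments is highest, and its signal is the authors' own measure of enrichment for that peak, on a scale that the sources used here do not define. The authors listed candidate peaks for each replicate (30000 each) and for the pooled reads (26505), and kept 1122 pooled peaks that met the irreproducible discovery rate (IDR), a measure of how well the ranks of peaks repeat between replicates. Pooled signals of IDR peaks ran from 61.3 to 770.4 with a median of 110.1. The lists start at 18.4 for the pooled reads, 9.58 for replicate 1 and 10.9 for replicate 3, so a gene with no listed candidate had no peak above those values. The lists hold no read counts, and the depth of the libraries is therefore unknown. At the 8 peaks described here the pooled signal was higher than that of either replicate, and signals are compared below only within a list or between the replicates.

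An IDR summit lay within 1000 bp of a start at 6 of the 9 peroxins, namely Pex3, Pex6, Pex10, Pex11ab, Pex11c and Pex13, and at none of Pex2, Pex5 and Pex19. Genes with such a summit are called bound below, and the others unbound. Over the genome 1550 genes, 11.1%, had such a summit, and 21.9% of the 7075 genes with a pooled candidate did. A candidate of any signal was listed at 7 of the 9 peroxins in the pooled list, against 50.7% of genes, at 7 in replicate 1, against 52.2%, and at 7 in replicate 3, against 54.8%. These values chose the genes, so nothing follows from the difference between the counts and the genome. The 6 bound genes carried 8 IDR summits, because Pex3 and Pex11c had 2 each. The strongest signal per bound peroxin had a median of 139.7 (n = 6), against 123.2 over the 1550 genes with an IDR summit. Of the 8 summits 5 had a signal above the median of the IDR set. The strongest of the 8, at Pex11c, held rank 139 of 1122 in that set.

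**Figure D1:**
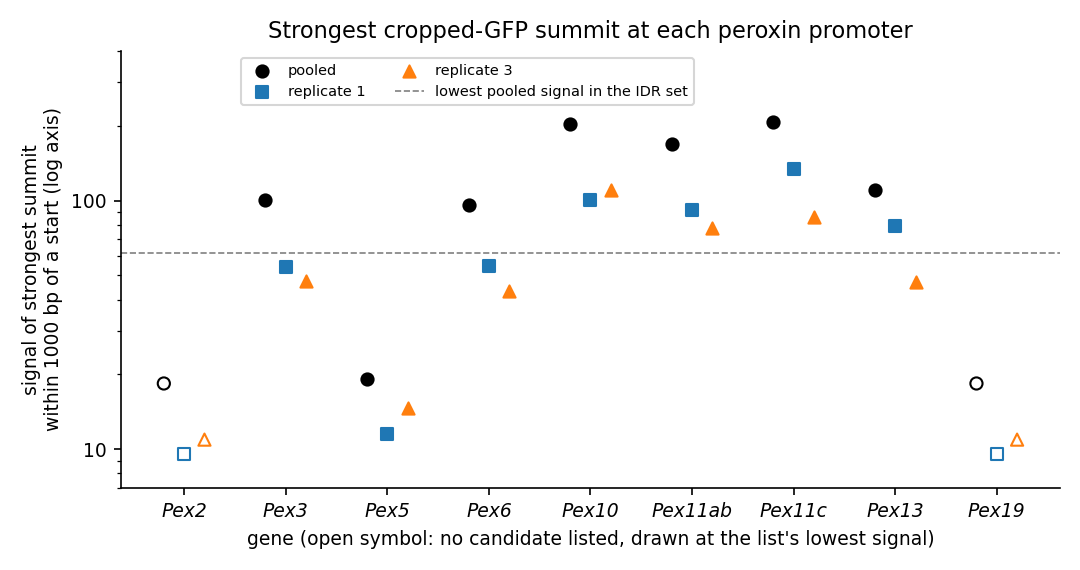
Signal of the strongest candidate summit within 1000 bp of a transcript start (log axis) for each of the 9 peroxins, in the pooled list (circles), replicate 1 (squares) and replicate 3 (triangles). Open symbols mark genes with no listed candidate and stand at the lowest signal of that list, and the dashed line is the lowest pooled signal in the IDR set (61.3): 6 genes lie above it, Pex5 lies at 19.1, and Pex2 and Pex19 have no candidate.

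Pex3 and Pex19 place proteins in the peroxisomal membrane: Pex19 carries newly made membrane proteins and Pex3 is its anchor on the membrane. Pex3 (FBgn0036484, plus strand, 15144355-15146379 in dm6) had 2 IDR peaks in the 296 bp between its start and that of CG32147, which runs the other way. The summit 259 bp before the Pex3 start had a signal of 100.9 in the pooled list, 54.1 in replicate 1 and 47.5 in replicate 3, and it lay 37 bp from the start of CG32147. The summit 26 bp before the Pex3 start had 80.3 in the pooled list, 39.96 in replicate 1 and 40.59 in replicate 3. The replicates thus gave similar signals at both positions, and the summit beside CG32147 was the stronger in each list. The peak intervals, each 404 bp wide, overlapped. The sequences around these summits are shown because neither holds CAGCTG. They are from the RefSeq Release 6 (dm6) genome, 5′ to 3′ on the Pex3 strand, cut to the bases outside untranslated regions.
Pex3, summit at -259 (chr3L:15144060-15144146, plus strand): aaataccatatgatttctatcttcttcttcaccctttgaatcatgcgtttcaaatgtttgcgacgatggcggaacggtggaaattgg
Pex3, summit at -26 (chr3L:15144279-15144354, plus strand): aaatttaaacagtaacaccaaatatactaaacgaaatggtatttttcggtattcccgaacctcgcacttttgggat

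The window at -259 held CAAATG and CATATG, other members of the E-box class CANNTG, and the window at -26 held no hexamer of that class. CAAATG lay within 50 bp of 8.65% of all IDR summits and CATATG within 50 bp of 4.55%. The copy of CAGCTG closest to a Pex3 IDR summit was 163.5 bp away, in a coding exon of CG32147. Pex19 (FBgn0032407, plus strand, 12091822-12095250), the partner of Pex3, had no candidate in any list, although a copy of CAGCTG lay 19.5 bp before its second annotated start at 12093762, in the 5′ UTR of the longer transcript. The nearest IDR summit was 9808 bp away, 181 bp from a start of ThrRS, and had a signal of 85.6. The bases around this copy, with CAGCTG in capitals, are shown as a promoter copy at which no peak was listed.
Pex19 (chr2L:12093728-12093757, plus strand): gccacacctgttCAGCTGactgcggtatgc

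Pex2 and Pex10 are RING finger proteins of the complex that ubiquitinates the import receptor. Their promoters differed widely in signal. Pex10 (FBgn0035233, plus strand, 1558228-1559863) has annotated starts at 1558228 and 1558782, and its IDR summit at 1558691 lay 91 bp before the second, in the 5′ UTR of the longer transcript. Its signal was 203.0 in the pooled list, 100.4 in replicate 1 and 110.0 in replicate 3, rank 147 of the IDR set. It was one of 2 of the 8 summits at which replicate 3 was the higher. Weak candidates were also listed in single replicates, with a signal of 9.98 at 677 bp past the second start in replicate 1 and 13.2 at 681 bp before the first start in replicate 3. CG12099, on the other strand, starts 298 bp before the second Pex10 start and 207 bp from the summit, within the stretch that the longer Pex10 transcript spans. Pex2 (FBgn0035876, plus strand, 8339051-8340276) had no candidate in any list. The nearest IDR summit lay 1594 bp past its start and 140 bp from that of CG7083, with a signal of 239.2. The CAGCTG closest to the Pex10 summit, 58.5 bp away and 32.5 bp before the second start, is set beside the copy closest to the Pex2 start, 367.5 bp before it.
Pex10, bound (chr3L:1558735-1558764, plus strand): gcaaaagtataaCAGCTGattttgttatct
Pex2, unbound (chr3L:8338669-8338698, plus strand): gaccaaatgtctCAGCTGaccaactggttt

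Pex11ab and Pex11c belong to the Pex11 family, membrane proteins that elongate peroxisomes before they divide, and both promoters were bound. Pex11c (FBgn0039068, plus strand, 23258365-23260602) had the strongest summit of the 9 genes. That summit, 200 bp before the start, had a signal of 207.1 in the pooled list and 133.8 in replicate 1. A second summit, 2 bp past the start, had 180.9 in the pooled list and 87.3 in replicate 1. Replicate 3 listed 1 candidate for both, with a signal of 85.8 and its summit 14 bp before the start. The separation into 2 summits was therefore seen in replicate 1 and the pooled list only. The first summit lay 78 bp from the start of wda, which is 278 bp from that of Pex11c on the other strand and encodes a subunit of the SAGA coactivator complex. A weak pooled candidate with a signal of 19.9 lay 699 bp past a downstream start, with 11.7 in replicate 1 at 703 bp, while replicate 3 listed 12.7 at 433 bp past that start. Each Pex11c summit had its own copy of CAGCTG, 26.5 bp and 9.5 bp away, which are the capitals in the windows that follow.
Pex11c, summit at -200 (chr3R:23258115-23258215, plus strand): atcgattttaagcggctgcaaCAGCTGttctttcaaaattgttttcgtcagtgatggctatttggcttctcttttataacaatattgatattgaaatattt
Pex11c, summit at +2, bases before the start (chr3R:23258317-23258364, plus strand): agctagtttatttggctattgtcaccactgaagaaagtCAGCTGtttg

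Pex11ab (FBgn0034058, minus strand, 15991367-15992375) had 1 IDR summit, 119 bp before its start, with a signal of 169.1 in the pooled list, 91.2 in replicate 1 and 77.8 in replicate 3. CG8320 starts only 33 bp away on the other strand, so the summit lay inside CG8320, in an intron, 86 bp from the CG8320 start. The interval was 127 bp wide, narrower than the 404 bp of most IDR peaks, as was the second Pex11c interval at 159 bp. Intervals under 404 bp made up 14.5% of the IDR set. The only CAGCTG within 1000 bp of the Pex11ab start was 5.5 bp past it, in the 5′ UTR, and 124.5 bp from the summit. A second pooled candidate, 810 bp into the gene, had a signal of 37.8, and replicate 3 listed 38.9 at 843 bp, while replicate 1 listed none there. The nearest start to both was that of CG8314, 279 bp from the pooled summit and 246 bp from the replicate 3 summit. This pooled candidate did not enter the IDR set.

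Pex5, Pex13 and their partners bring in matrix proteins: Pex5 is the receptor for the common C-terminal import signal, and Pex13 and Pex14 form the docking complex. Pex13 (FBgn0033812, minus strand, 13228276-13230234) had an IDR summit 283 bp before its start, with a signal of 110.2 in the pooled list and 78.9 in replicate 1. In replicate 3 its interval was overlapped by 2 candidates, one with a signal of 26.7 whose summit was 104 bp away and one with 47.1 whose summit was 113 bp away. Both were below the replicate 1 value. The summit lay 66 bp from the start of fsd, which encodes an F-box protein and begins 349 bp from Pex13 on the other strand. The closest CAGCTG was 105.5 bp from the pooled summit, in the 5′ UTR of fsd. A pooled candidate of 21.1 was also listed 494 bp before the Pex13 start.

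Pex5 (FBgn0023516, minus strand, 1866832-1869061) had weak candidates only. Its pooled candidate had a signal of 19.1 and rank 24129 of 26505, with its summit 57 bp past the first start, in a coding exon of CG14803 on the other strand. Replicate 1 listed 11.5 at a summit 553 bp before the first start, and replicate 3 listed 14.6 at 48 bp before the second start. The 3 summits were at different places, and the nearest IDR summit was 39059 bp away. The Pex5 copy of CAGCTG closest to a start was 205.5 bp before it, in an intron of CG14803, and is shown as a further copy with no IDR peak.
Pex5, unbound (chrX:1869252-1869281, minus strand): tgtacttgttggCAGCTGccaggggagctc

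Pex6 is an AAA-type ATPase of the machine that pulls the ubiquitinated receptor out of the membrane so that it can be used again. The Pex6 gene (FBgn0033564, plus strand, 10879974-10883202) had an IDR summit 61 bp before its start, with a signal of 96.0 in the pooled list, 54.4 in replicate 1 and 43.2 in replicate 3. It was the weakest of the 6 bound genes by strongest summit, at rank 700. Taf5, which encodes a subunit of the general transcription factor TFIID, starts 301 bp away on the other strand and 240 bp from the summit. A copy of CAGCTG lay 33.5 bp from the summit, between the starts.

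Most of the peroxin summits lay between 2 genes that start back to back. A divergent neighbour, here a protein-coding gene on the other strand whose start lies within 1000 bp upstream, was found at 7 of the 9 peroxins: CG32147 at Pex3, Taf5 at Pex6, CG12099 at Pex10, CG8320 at Pex11ab, wda at Pex11c, fsd at Pex13 and CG14803 at Pex5. All 6 bound peroxins had one, with a median gap of 297 bp between the starts. The unbound Pex5 had one at 67 bp, and the unbound Pex2 and Pex19 had none. Over the genome 36.2% of genes had such a neighbour. The share was 72.3% among the 1550 genes with an IDR summit and 31.7% among genes without one. A summit between back-to-back starts is counted for both genes. The median gap was 251 bp over the 1120 bound genes with a neighbour and 298 bp over all 5052 genes with one. Read the other way, 22.2% of genes with a divergent neighbour had an IDR summit, against 4.82% of genes without.

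Of the 8 summits 7 were upstream of the peroxin's nearest start and 1 was 2 bp past it. The Pex10 summit was upstream of the second Pex10 start only. The nearest start of any gene was the peroxin's own for 4 summits (1 each at Pex3, Pex6, Pex10 and Pex11c) and the neighbour's for the other 4 (at Pex3, Pex11ab, Pex11c and Pex13). The median distance was 105 bp to the peroxin start and 63.5 bp to the nearest start, against 48 bp to the nearest start for the 1053 IDR summits within 1000 bp of a start. In the annotation 5 of the summits were intergenic, 2 in the 5′ UTR of the peroxin and 1 in an intron of the neighbour.

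**Figure D2:**
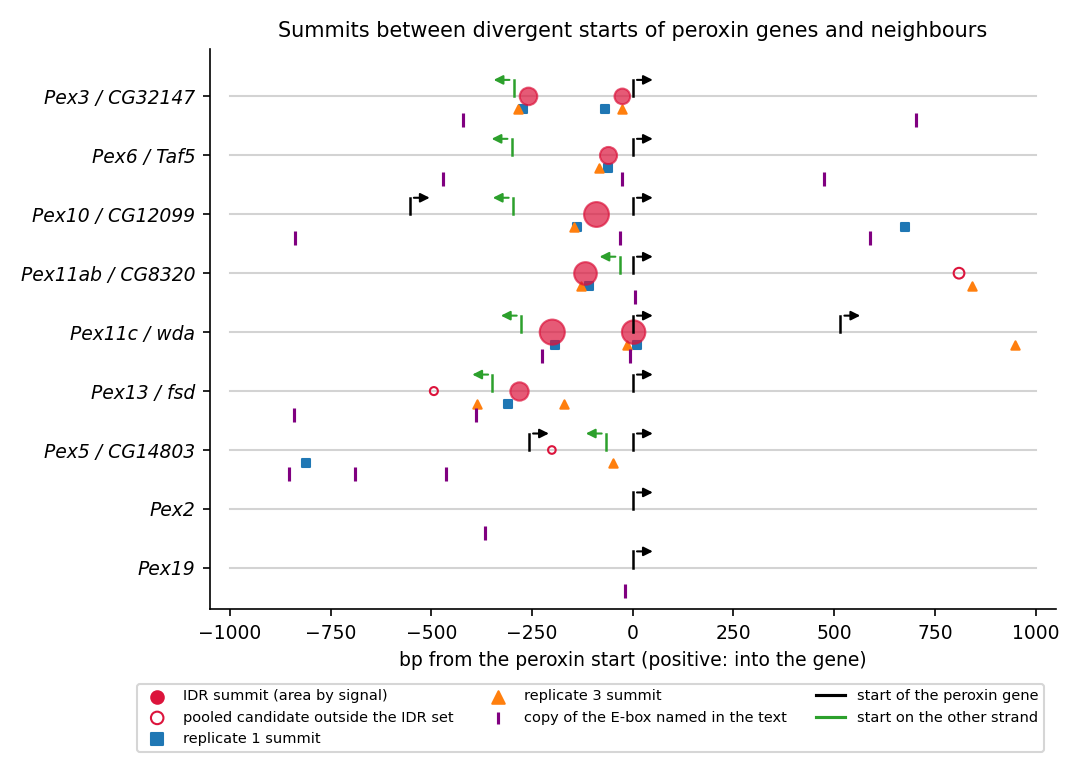
Map of the 9 peroxin promoters, drawn to scale in bp from a peroxin start with the peroxin running to the right, with starts of peroxins (black arrows) and of genes on the other strand (green arrows). Filled circles are IDR summits and open circles weaker pooled candidates, with area by signal, squares and triangles are summits of replicates 1 and 3, and purple ticks are copies of the E-box of cropped. Where a gene has several starts, the zero is the start nearest its strongest IDR summit, and the second listed start of Pex5 (the one at 1868803) and of Pex19. The 8 IDR summits sit at or within 283 bp upstream of the start drawn at zero, 7 of them before it, and Pex2 and Pex19 have no summit.

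At the 8 IDR peaks the replicates were compared by the log2 ratio of the signal in replicate 3 to that in replicate 1. Each peak was matched to the candidate of a replicate that overlapped it by at least 50% of the shorter interval and had the closest summit. The ratio was -0.19 and 0.02 at the Pex3 peaks, -0.33 at Pex6, 0.13 at Pex10, -0.23 at Pex11ab, -0.64 and -0.02 at the Pex11c peaks and -1.56 at Pex13. Replicate 1 was thus the higher at 6 of 8 peaks, and both Pex11c peaks were matched to the same candidate of replicate 3. Its summit was 16 bp from the Pex11c summit at +2 but 186 bp from the one at -200. The ratio of -0.64 at -200 therefore does not compare the same position. The median was -0.21 at the peroxin peaks and -0.16 over the 1117 IDR peaks matched in both replicates, whose SD was 0.58 (n = 1117) and whose 5th and 95th percentiles were -1.03 and 0.86. Pex13 lay below the 5th percentile and the other 7 peaks within the range. The values at Pex13 and at the Pex11c summit 2 bp past the start depend on the candidate taken. With the strongest overlapping candidate of each replicate, a choice made after the data were seen, the ratio was -0.74 at Pex13 and -0.64 at that Pex11c summit. The signals of the replicates are on each list's own scale, and their difference in depth is not known.

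**Figure D3:**
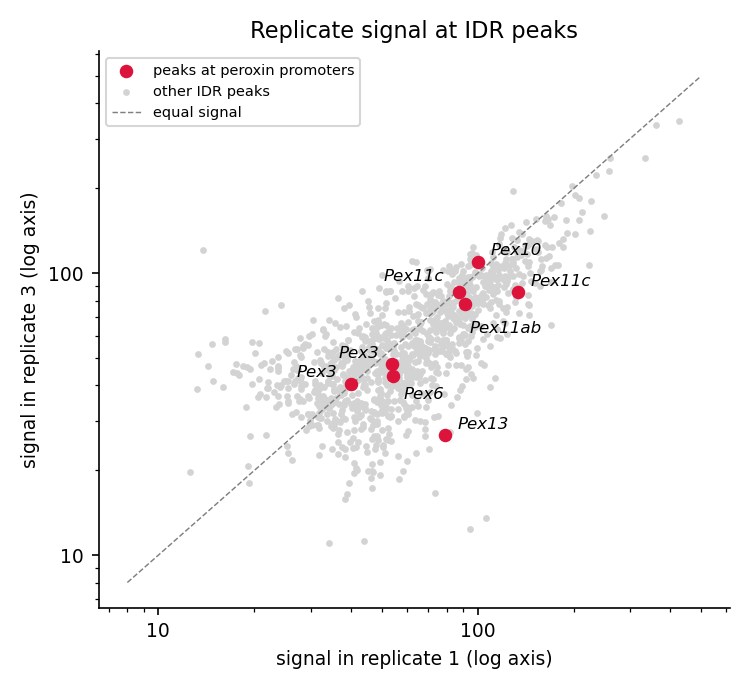
Signal in replicate 1 against signal in replicate 3 (log axes) at the 8 IDR peaks of peroxin promoters (red) and at the other IDR peaks with a candidate in both replicates (grey), with equal signal as a dashed line. The peroxin peaks lie along the cloud, except that Pex13 is lower in replicate 3, at 26.7 against 78.9 in replicate 1.

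Among the peroxins reported here the IDR threshold fell in a wide gap of signal. The genes were chosen with such signals known, so the gap is a description of this list only. The IDR set itself reached down to 61.3. The peroxin summits closest to the threshold from inside were those of Pex3 at -26 bp and of Pex6. Pex3 had a signal of 80.3 and a deposited −log10 q value of 2.76 there, and Pex6 had 96.0 and 3.21. Just outside were the second Pex11ab candidate, with 37.8 and a −log10 q of 0.51, and Pex23, with 28.5 and 0.13. That Pex11ab candidate was nearer to the start of CG8314 than to that of Pex11ab. The −log10 q value was 3.21, the highest in the set, at 7 of the 8 peroxin peaks.

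CAGCTG was looked for within 50 bp to each side of a summit, on the one strand that suffices for a palindrome. It was found at 3 of the 8 peroxin summits, 37.5%, namely Pex6 and both Pex11c summits, against 48.2% of the 1122 IDR summits (95% Wilson interval 45.3 to 51.1, counting error only) and 49.5% of the 1053 near a start. Within 25 bp it was found at 1 of 8 peroxin summits, against 29.3% of all IDR summits, and within 100 bp at 4 of 8, against 68.4%. The fourth was Pex10. A difference from the whole set was not tested. Of the 10 hexamers of the class CANNTG, counted with their reverse complements, only CAAATG and CATATG also occurred within 50 bp of a peroxin summit, both at the Pex3 summit at -259. Each copy of CAGCTG can be read from either strand, and the 2 bases before it were recorded in both readings. In the 3 copies within 50 bp of peroxin summits the 6 readings were AACAGCTG 3 times, GTCAGCTG 2 times and GACAGCTG 1 time. Among the 1230 readings of the 615 copies within 50 bp of all IDR summits, AACAGCTG made up 37.1%, ATCAGCTG 22.4%, GTCAGCTG 7.72% and GACAGCTG 3.82%.

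All 9 peroxins had a copy of CAGCTG within 1000 bp of a start, and so did Pex7, Pex14, Pex16 and Pex23. The share over all genes in that window was not computed, so the count does not set these genes apart. From 250 bp before to 50 bp after a start, a copy was present at 6 of the 9: the bound Pex6, Pex10, Pex11ab and Pex11c and the unbound Pex5 and Pex19. The bound Pex3 and Pex13 and the unbound Pex2 had none there. Over the genome 22.3% of genes had a copy in that stretch, and 72.8% of genes with an IDR summit did. Among these 9 genes, presence of the hexamer near the start therefore did not separate the bound from the unbound. Of the further peroxins Pex7, Pex14, Pex16 and Pex23, all unbound, 0 of 4 had a copy in that stretch. A difference between bound and unbound peroxins was not tested. TATCGATA, the core of the element bound by the promoter factor DREF, was present at 0 of the 9, against 10.2% of all genes and 15.7% of those with an IDR summit. TATAAA, the letters of the TATA box, was present at 5 of the 9, against 51.3% and 52.5%. Both were read on both strands. Within 50 bp of the summits TATCGATA occurred at 0 of 8 and TATAAA at 2 of 8, against 7.04% and 14.8% of all IDR summits. A match of letters is a description of the window and does not show a site in use.

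Pex7, Pex14, Pex16 and Pex23 had no IDR summit, against a share of 11.1% with one over all genes. Pex23 had a pooled candidate of 28.5 and one of 21.2 in replicate 3, with none in replicate 1. Pex14, the docking partner of Pex13, and Pex16, which works with Pex3 and Pex19 at the membrane, start 535 bp apart on opposite strands and shared 1 pooled candidate with a signal of 21.0 and 11.0 in replicate 1. Pex7, the counterpart of the receptor for the N-terminal import signal in other species, had a candidate only in replicate 1, with a signal of 12.6. All 4 had a divergent neighbour, so such a neighbour was also present at unbound peroxins. Partners in a process were not alike: Pex3 was bound and Pex19 was not, Pex10 was bound and Pex2 was not, and Pex13 was bound and Pex14 was not, whereas both Pex11ab and Pex11c were bound.

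Among 14 enzymes and transporters of the peroxisome reported here, 1 had an IDR summit, against 11.1% of all genes. Gnpat, the acyltransferase that begins ether lipid synthesis, had a summit 12 bp before its start with 242.1 in the pooled list, 127.7 in replicate 1 and 112.4 in replicate 3. A second Gnpat summit, 474 bp past a downstream start of the gene, had 82.0 in the pooled list, 25.5 in replicate 1 and 52.1 in replicate 3, so there replicate 3 was the higher. Among the rest, the acyl-CoA oxidase relative CG4586 had 59.9, just under the lowest IDR signal, and Agps, the next enzyme of ether lipid synthesis, had 34.5. That Agps summit lay 615 bp before an Agps start and only 184 bp from a start of Lap1. A pooled candidate was listed for 10 of the 14, against 50.7% of all genes. The median strongest signal of those 10 was 24.5, against 28.4 over the 7075 genes with a pooled candidate. Mfe2, Acox57D-d, Uro and PMP34 had none. Of the fission factors that peroxisomes share with mitochondria, Fis1 had 35.3, Drp1 had 26.1 and Tango11 had no pooled candidate, and 0 of the 3 had an IDR summit.

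**Figure D4:**
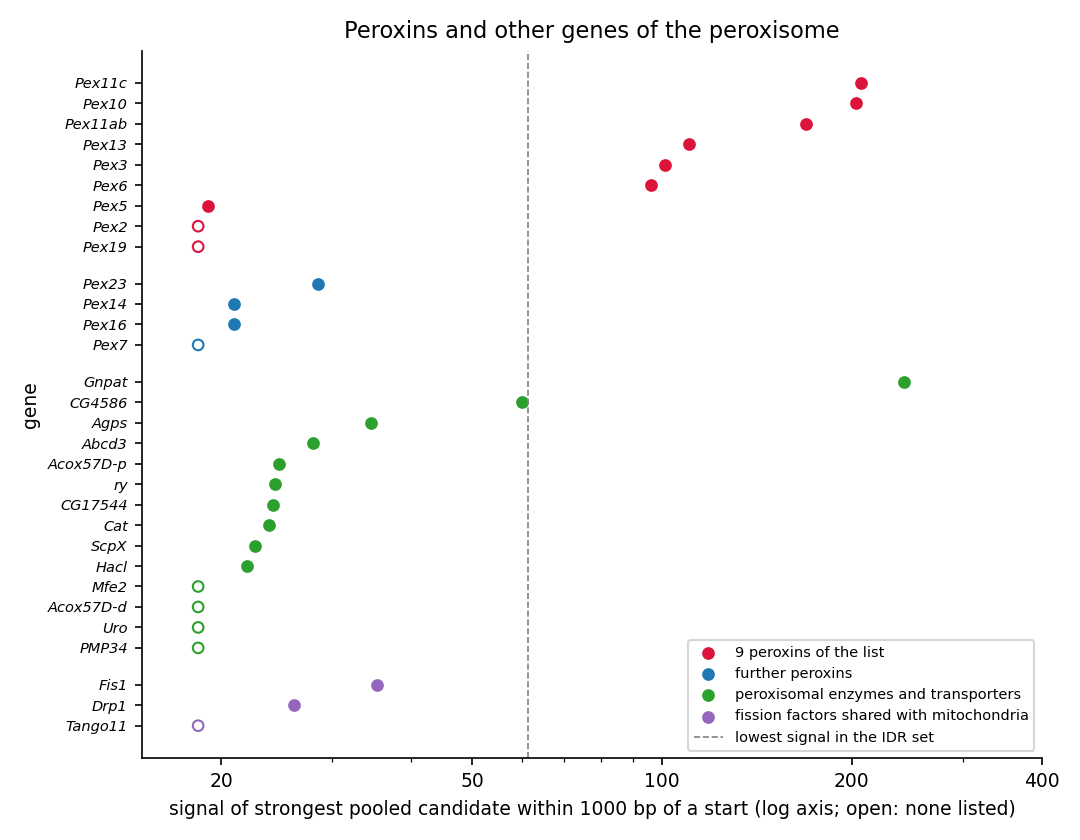
Signal of the strongest pooled candidate within 1000 bp of a start (log axis) for the 9 peroxins, 4 further peroxins, 14 peroxisomal enzymes and transporters and 3 fission factors. Open symbols mark genes with no listed candidate, drawn at the lowest signal of the list, and the dashed line is the lowest signal in the IDR set: 6 of the 9 peroxins lie to its right, with Gnpat from the other lists.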

How the data were processed

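The data were chromatin immunoprecipitation with sequencing (ChIP-seq) peak lists in the dm6 build, 1 candidate list for each replicate, 1 from the pooled reads and 1 optimal IDR list. The signal and the −log10 q values are the authors' own, as deposited. The signal was used to describe and rank peaks and was compared between replicates only as a ratio. No label or file header used here names the aligner, the peak caller or the cut-off of the IDR step. A control experiment named in the labels and the dm3 lists were not analysed here.

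Summits were placed from the deposited offset and assigned to each protein-coding gene with a transcript start within 1000 bp in the Ensembl release 115 annotation. Sequences were read from the RefSeq dm6 genome. The peroxins and the other peroxisome genes were chosen with earlier results of these data known. All 9 peroxins are named. The rule for the other peroxisome genes was to name each with an IDR summit and the highest of the rest, but some of those genes, with and without a summit, are not reported here, so the counts over other peroxisome genes do not cover the whole lists. The labels call the replicates biological, but with 1 group no comparison between conditions was possible. Peak assignment, the replicate match and the hexamer search were tested on simulated data. Python 3.11.15, NumPy 2.4.6, pandas 2.3.3, SciPy 1.17.1 and Matplotlib 3.10.9 were used. Alternatives were other windows, the stronger part of the IDR set, the 5′-most start, each replicate alone, other motif distances and other rules for the replicate match.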

Additional observations from a re-analysis of the deposited data

How the results depend on the processing

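The number of peroxins with an IDR summit was 6 of 9 within 1000 bp, 6 within 500 bp, 5 within 200 bp (without Pex13) and 7 within 2000 bp (with Pex2, by the CG7083 summit). It was 6 with the 5′-most start alone and 4 among the 561 strongest IDR peaks (Pex10, Pex11ab, Pex11c and Pex13). With 1 replicate left out, the 1122 strongest candidates of the other took the place of the IDR set. In either case 6 of the 9 peroxins had a summit among them. The median signal of bound peroxins was 169.1 within 200 bp, 169.1 within 2000 bp and 186.0 among the 561 strongest, against 139.7. It ran from 62.7 to 85.0 when 1 replicate was left out, on the scale of the other replicate and over its 1122 strongest candidates. The share of all genes with a summit was 8.66% within 200 bp, 10.2% within 500 bp, 13.1% within 2000 bp and 6.49% among the 561 strongest, against 11.1%. Reported enzymes and transporters with a summit numbered 2 without replicate 1 (Gnpat and CG4586), 1 without replicate 3 and 1 with both (Gnpat). Peroxin summits with CAGCTG numbered 1 within 25 bp, against 3 within 50 bp. By overlap, 8 of 8 peroxin peaks had a matching candidate in each replicate. With summits required to lie within 100 bp, 6 of 8 did. No paired analysis was possible because the series has only 1 group. Unknown depth limits what the lack of a candidate shows, and the lists bound that only by their lowest signals.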

Other observations

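Among the divergent neighbours of the 9 peroxins, 2 encode subunits of general coactivator or initiation complexes, a grouping made after the values were seen. Taf5 (TFIID) starts 301 bp from Pex6 and wda (SAGA) 278 bp from Pex11c, and both gaps held IDR summits, with signals of 96.0 at Pex6 and 207.1 at Pex11c. These peroxins were chosen with their summits known, so the summits in these gaps say nothing about the grouping. Over the genome 22.2% of genes with a divergent neighbour had an IDR summit. The share of all divergent neighbours that encode such subunits was not computed.

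At the Pex13 promoter the replicate 3 summit with a signal of 26.7 lay inside the CAGCTG in the fsd 5′ UTR, whereas the pooled summit was 105.5 bp away and the replicate 1 summit lay between them. The stronger replicate 3 summit, with 47.1, was on the other side of the pooled one, 170 bp before the Pex13 start.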
